A study of Mus musculus with 18 samples.

Results

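The 10 genes described here are transcriptional targets of glucocorticoids that are measured in brain: Sgk1, Fkbp5, Tsc22d3, Klf9, Nfkbia, Mt1, Mt2, Pdk4, Cdkn1a and Errfi1. They were chosen by name, with earlier results of these data known. Each was represented by the RefSeq transcript row that held most of its counts over 12 libraries, so that 10 rows were followed among 31089 rows with at least 1 count. The brains came from 6 male C57BL/6 mice aged 8 weeks, of which 3 were wild type (WT) and 3 carried a knockout (KO) of Ftsj1, a gene for a tRNA methyltransferase. By the labels the mice received no treatment. They were numbered 1 to 3 within a genotype, and how the knockout was made is not given in the sources used here. Each brain gave a library of polyadenylated total mRNA and a library of ribosome-contained mRNA, the fragments that ribosomes protect from digestion. Fewer cells of a type cannot be told apart from less RNA per cell in whole brain.

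Glucocorticoids are steroid hormones of the adrenal gland that bind the glucocorticoid receptor, a ligand-controlled transcription factor held in the cytoplasm by heat shock proteins and co-chaperones. The occupied receptor moves to the nucleus and binds paired short motifs in DNA, and the hormone level in blood follows the time of day and acute stress. Several of the genes have a second regulator: metals and their sensor MTF1 for the metallothioneins, NF-kB for Nfkbia, p53 for Cdkn1a, PPAR receptors for Pdk4 and EGF receptor signalling for Errfi1.

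Promoter letters from RefSeq (assembly GRCm38.p6) are shown for 3 start sites, because Mt2 and Sgk1 gave patterns described below, and Mt1, which was too thinly counted to test, is the close relative of Mt2. Each stretch is the 250 bases before a start site on the plus strand, 5′ to 3′, and capitals mark matches to the motifs searched. The Mt2 stretch (chr8:94172368-94172617) and the Mt1 stretch (chr8:94178839-94179088) come from the metallothionein cluster. The Sgk1 stretch (chr10:21993640-21993889) lies before the start of transcript NM_001161850.2. That transcript held 91 counts over the 12 libraries, against 631 for the Sgk1 row followed here. Its stretch is the only one of Sgk1 with the spaced pair described below.
Mt2: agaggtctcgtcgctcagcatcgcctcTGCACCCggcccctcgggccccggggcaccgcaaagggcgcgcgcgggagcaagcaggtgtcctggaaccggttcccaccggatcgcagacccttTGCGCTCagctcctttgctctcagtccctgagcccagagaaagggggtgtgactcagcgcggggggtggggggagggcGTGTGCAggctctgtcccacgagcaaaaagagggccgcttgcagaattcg
Mt1: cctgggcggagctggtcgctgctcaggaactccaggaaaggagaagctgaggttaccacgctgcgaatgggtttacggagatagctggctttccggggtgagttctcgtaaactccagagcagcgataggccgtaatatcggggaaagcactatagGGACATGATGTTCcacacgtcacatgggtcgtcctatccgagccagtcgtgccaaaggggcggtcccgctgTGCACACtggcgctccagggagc
Sgk1: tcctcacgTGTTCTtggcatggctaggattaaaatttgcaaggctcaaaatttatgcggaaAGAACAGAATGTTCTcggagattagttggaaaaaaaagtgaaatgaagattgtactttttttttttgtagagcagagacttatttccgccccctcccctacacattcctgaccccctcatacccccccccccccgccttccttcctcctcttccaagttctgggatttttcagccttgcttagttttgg

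The metal response element core was searched as TGCACNC or TGCGCNC on both strands. The Mt2 stretch held 3 matches and the Mt1 stretch 1, and at least 1 match was found in 21.4% of 32851 promoter stretches of the same length, 3 or more in 1.26%. The glucocorticoid hexamer AGAACA occurred on either strand in 16.1% of stretches, and a spaced pair, GNACA followed after any 3 bases by TGTNC, which can overlap it, in 0.387%. That spaced pair was present once before Mt1 and once in the Sgk1 stretch, where it overlapped 2 of the 3 hexamers and began 964 bases before the start of NM_011361.3, the transcript row that held most Sgk1 counts. Among the 19 promoter stretches of the 10 genes, a hexamer was also found before 2 other Sgk1 starts and 1 Tsc22d3 start, and a metal core before Nfkbia. A match is a description of these letters, and stretches without one, such as those of Fkbp5, Klf9, Pdk4 and of the Sgk1 start of NM_011361.3 itself, say nothing of elements elsewhere.

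The deposited values are read counts per transcript accession, and the depth was 2024748 to 3459406 counts per total library and 1055741 to 1560192 per ribosome-contained library. Levels are given as CPM (counts scaled to a common library size) after TMM scaling. They are compared between mice for 1 row at a time and not between genes, since they are not scaled to length. Ftsj1 had 2 accessions in the table and 0 counts in the 12 libraries, so the knockout could not be checked here. Genes with several accessions were poorly counted: 39.4% of protein-coding genes with 1 accession, but 10.8% of those with 3 or more, reached 120 counts. Markers of brain were present, with the summed level of neuron markers between 8072 and 8397 CPM in the 6 total libraries.

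No change with genotype was detected in these genes. In total mRNA 9 had enough counts for the test and 0 passed, where 0.329% of 8206 rows did. In ribosome-contained mRNA 7 were tested and 0 passed, against 0.211% of 4749 rows, and for the ratio between the kinds of library 0 of 7 passed, as did 0 of 4601 rows (0%). The test was edgeR's quasi-likelihood test with Benjamini-Hochberg adjustment over all rows and a threshold of 0.05. At an unadjusted p under 0.05 the counts were 0 of 9, 1 of 7 and 0 of 7 for these genes and 8.15%, 9.48% and 4.96% for all rows. DESeq2 gave an adjusted p for 4 of the 9 genes in total mRNA and for all 7 in the other comparisons, and 0 of these passed. For Sgk1, Pdk4, Cdkn1a, Errfi1 and Tsc22d3 in total mRNA it gave no adjusted p, and the unadjusted p ran from 0.188 to 0.866. WT and KO values overlapped for all 9 tested genes in total mRNA and all 7 in ribosome-contained mRNA, while 13.3% and 14.7% of all rows had groups that did not overlap. The median log2 fold change of KO over WT was -0.03 over the 9 genes in total mRNA (0.01 over all rows) and 0.01 over the 7 in ribosome-contained mRNA (0.00 over all rows).

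**Figure D1:**
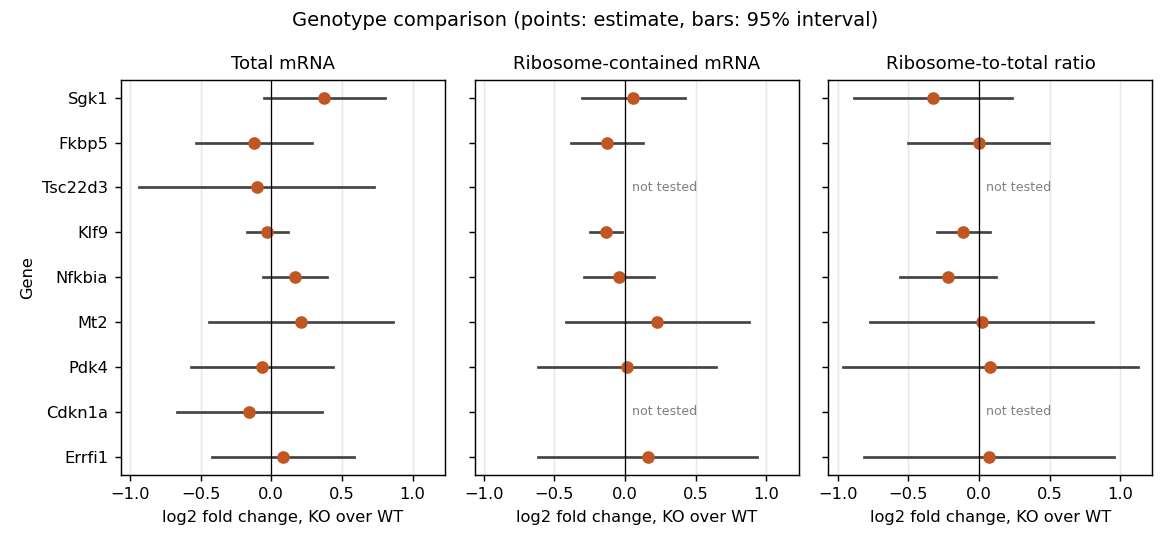
Log2 fold change of KO over WT (x axis) for each gene (rows) in total mRNA, ribosome-contained mRNA and their ratio; points are the edgeR estimates and bars their 95% intervals, n = 3 mice per genotype. The intervals include 0 except that of Klf9 in ribosome-contained mRNA, whose adjusted p is 0.405. Those of the ratio come from a model without a term for mouse.

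Measured levels differed between mice of a genotype, and for most of the genes more so among KO mice. The within-genotype SD of log2 CPM had a median over the 9 tested genes of 0.146 in WT and 0.301 in KO for total mRNA, where the medians over all tested rows were 0.178 and 0.164. In ribosome-contained mRNA the medians over 7 genes were 0.146 in WT and 0.213 in KO, against 0.148 and 0.164 over all rows. The KO value for total mRNA was 0.283 without KO mouse 1, 0.205 without KO mouse 2 and 0.417 without KO mouse 3. For ribosome-contained mRNA it was 0.121, 0.178 and 0.232 without the same mice. The WT value for ribosome-contained mRNA was 0.0755 without WT mouse 1 and 0.0781 without WT mouse 2. Not every gene was wider in KO. In total mRNA Sgk1 (SD 0.357 in WT and 0.296 in KO) and Tsc22d3 (0.468 and 0.265) went the other way. In ribosome-contained mRNA Sgk1 (0.197 and 0.169) and, barely, Pdk4 (0.552 and 0.546) did so, and the other tested genes were wider in KO. A difference in spread between genotypes was not tested, since each spread rests on 3 mice. Counts per total library were low for several genes: 5 to 16 for Tsc22d3, 20 to 40 for Cdkn1a and 22 to 40 for Errfi1. They were 33 to 71 for Sgk1 and 34 to 75 for Pdk4. The SDs of these genes include counting error, and the rows they are set against were not matched for depth.

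KO mouse 1 was low for most of the genes, and the high values were spread over KO mice 2 and 3. In total mRNA KO mouse 1 was the lowest of the 6 mice for 6 of the 9 genes (Fkbp5, Pdk4, Mt2, Cdkn1a, Errfi1 and Klf9), and it was lowest in 17.1% of all rows. Some of these places rest on a few reads. For Cdkn1a KO mouse 1 had 26 counts and KO mouse 3 had 28. For Pdk4 KO mouse 1 had 34 counts and WT mouse 3 had 36. KO mouse 2 was the highest for 6 of the 9 (Sgk1, Fkbp5, Cdkn1a, Errfi1, Klf9 and Nfkbia), and it was highest in 14.6% of all rows. Pdk4 and Mt2 were highest in KO mouse 3, which was highest in 16.5% of rows. KO mouse 3 was not high throughout, since it lay below the 3 WT mice for Fkbp5 and Cdkn1a. The mean deviation of log2 CPM from the 6-mouse mean was -0.28 in KO mouse 1, 0.18 in KO mouse 2 and 0.14 in KO mouse 3, and between -0.04 and 0.01 in the WT mice. The second library of the same brains gave -0.31, 0.14 and 0.17 for the KO mice over 7 genes. There KO mouse 1 was lowest for 4 of 7 (Mt2, Errfi1, Klf9 and Nfkbia), against 17.0% of rows. KO mouse 2 was highest for 2 of 7 there (Sgk1 and Errfi1) and KO mouse 3 for 2 (Pdk4 and Mt2), while KO mouse 3 was lowest for Fkbp5. These genes share mice and are not independent replicates of the pattern. They were also chosen with earlier results of these data known, so the shares over all rows are a description.

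**Figure D2:**
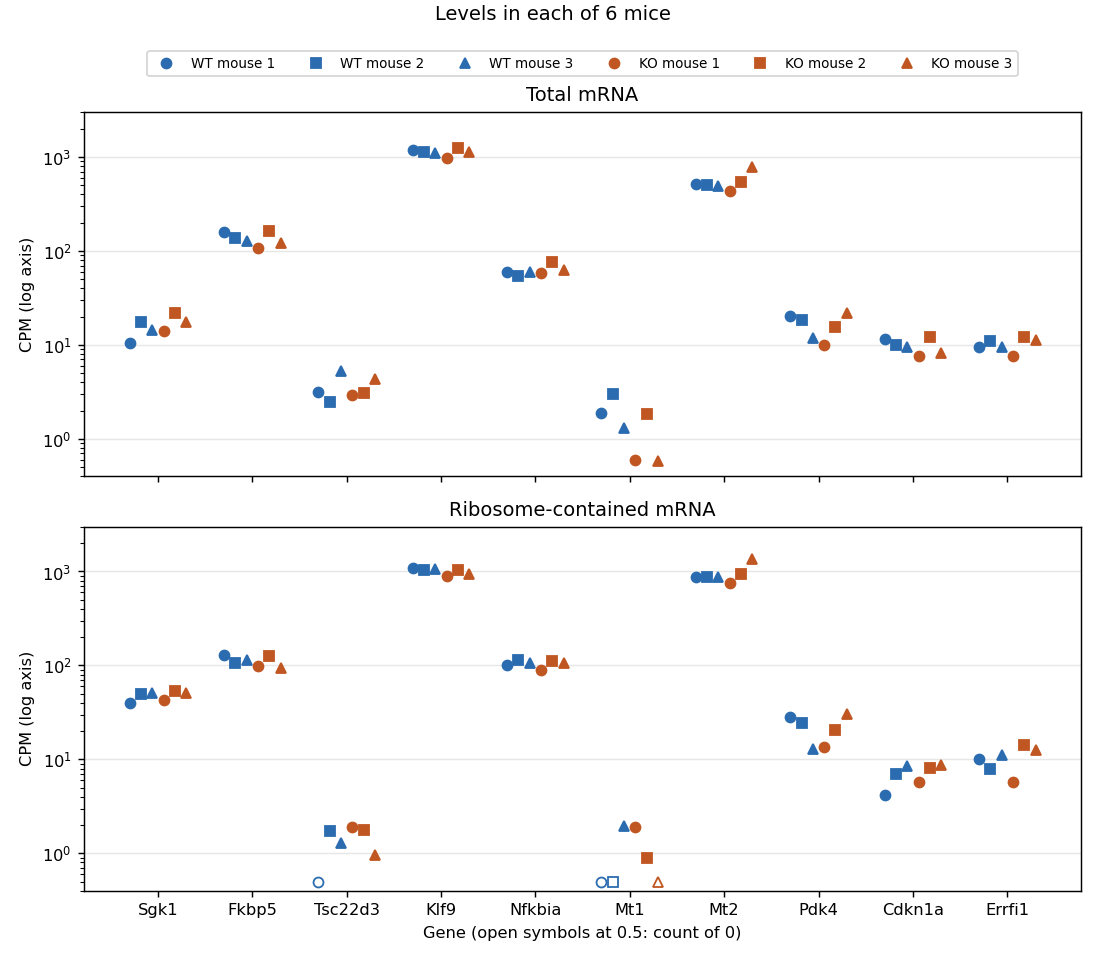
Level in CPM (log axis) of the 10 genes in total mRNA (top) and ribosome-contained mRNA (bottom), with 1 symbol per mouse and open symbols for a count of 0. KO mouse 1 (orange circles) is the lowest of the 6 mice for 6 of 9 tested genes in total mRNA, for some of them by a few reads. Mt2 in KO mouse 3 (orange triangle) stands at 774 CPM in total and 1372 CPM in ribosome-contained mRNA.

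Depth and other cell types were compared across the same mice. The total library of KO mouse 3 was the deepest, and scaling by DESeq2's size factors in place of TMM left the KO medians at 0.302 and 0.215. Blood markers (5 of 5 with counts) summed to 121 to 183 CPM in WT and 144, 168 and 198 CPM in KO mice 1, 2 and 3 in total mRNA. Markers of endothelium and pericytes (6 of 8 with counts, Pecam1 and Pdgfrb at 0) summed to 569.6 to 661 CPM in WT and to 549, 569 and 503 CPM in the KO mice. Astrocyte markers (7 of 7 with counts) summed to 2217 to 2318 CPM in WT and 2233, 2218 and 2415 CPM in KO. Oligodendrocyte markers (5 of 7 with counts, Mag at 0) summed to 2054 to 2103 CPM in WT and 1795, 1968 and 1974 CPM in KO. Their part in the levels of the 10 genes was not tested.

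Among the effectors of the receptor, Sgk1 encodes a serine/threonine kinase that controls ion channels and transporters and is a classical early target of corticosteroids. Its main row, NM_011361.3 (chromosome 10, start site 21994666 in GRCm38), stood at 10.4, 17.4 and 14.4 CPM in WT mice 1 to 3 and at 14.2, 21.8 and 17.5 CPM in KO mice 1 to 3 in total mRNA. WT mouse 1 was the lowest and KO mouse 2 the highest, and the groups overlapped. The fold change was 1.30 (95% interval 0.964 to 1.75; log2 0.38, SE 0.213, adjusted p = 0.667, edgeR). Without single libraries the log2 fold change ran from 0.19 (without WT mouse 1) to 0.52 (without WT mouse 2). In ribosome-contained mRNA the same row stood at 39.5, 49.7 and 51.2 CPM in WT and 42.5, 53.5 and 50.9 CPM in KO, which was a log2 fold change of 0.06 (SE 0.177). WT mouse 1 was again the lowest and KO mouse 2 the highest.

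A second Sgk1 row held nearly as many reads. NM_001161845.2 starts at 21882184, which is 112482 bases upstream, and held 544 counts over the 12 libraries against 631 for the main row, which made up 49.0% of the counts of the gene. The transcripts have different start sites, and how reads shared by them were treated is not given in the sources used here. In total mRNA the upstream row had a log2 fold change of -0.24 (SE 0.211), and with all accessions of the gene summed Sgk1 was at 0.11 in place of 0.38. The main row took 46.7% ± 8.40 of the reads of both rows in WT and 56.8% ± 6.00 in KO (means with SD of 3 mice; exact permutation p = 0.2, two-sided, where 3 mice against 3 cannot go below 0.1). In ribosome-contained mRNA it took 56.6% ± 6.61 and 53.3% ± 6.94 (exact permutation p = 0.5). Single libraries ran from 38.8% (Wilson 95% interval 29.2 to 49.5, WT mouse 1, total) to 62.5% (52.5 to 71.5, KO mouse 3, total), and these intervals, which cover counting error only, did not overlap. The gene overlaps the noncoding RNA gene Gm46215 and the pseudogene Gm18511.

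Fkbp5 encodes the FK506-binding co-chaperone that lowers the hormone affinity of the receptor, and as a target of that receptor it forms a feedback loop. Its row (chromosome 17, 28398753 to 28486149) stood at 160.0, 139 and 128 CPM in WT mice and at 108, 162 and 123 CPM in KO mice in total mRNA. KO mouse 1 was the lowest and KO mouse 2 the highest of the 6, with WT mouse 1 close to the latter. The log2 fold change was -0.13 (SE 0.170, adjusted p = 0.904, edgeR; fold 0.917, 95% interval 0.690 to 1.22). It was -0.31 without KO mouse 2 (unadjusted p = 0.00199, adjusted p = 0.160, edgeR), -0.00 without KO mouse 1 and -0.02 without WT mouse 1. In ribosome-contained mRNA the values were 129, 105 and 115 CPM in WT and 99.4, 126 and 95 CPM in KO, with a log2 fold change of -0.13 (SE 0.125). There KO mouse 3 was the lowest and WT mouse 1 the highest. The small noncoding gene Gm22146 lies within Fkbp5.

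Tsc22d3 encodes GILZ, a leucine zipper protein through which glucocorticoids restrain inflammatory transcription factors. It could hardly be followed: the noncoding model NR_122039.1 held 75 counts over the 12 libraries, and the accessions NM_010286.4 and NM_001077364.1 were listed at 0. In total mRNA that model had between 5 and 16 counts per mouse, and the log2 fold change was -0.10 with a 95% interval from -0.93 to 0.73. The row therefore speaks for that model and not for the gene.

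Klf9 is a Krüppel-like transcription factor that responds to glucocorticoids and thyroid hormone in neurons and follows the daily rhythm. It had the most counts of the 10 rows (27792) and the tightest interval (chromosome 19, 23141226 to 23168129). Total mRNA held 1175, 1122 and 1114 CPM in WT and 976, 1235 and 1137 CPM in KO. KO mouse 1 was the lowest and KO mouse 2 the highest, so the KO mice enclosed the WT mice. The fold change was 0.981 with a 95% interval from 0.887 to 1.09 (log2 -0.03, SE 0.0678, adjusted p = 0.959, edgeR). Ribosome-contained mRNA held 1082, 1036 and 1057 CPM in WT and 905, 1044 and 939 CPM in KO. KO mice 1 and 3 were below the 3 WT mice and KO mouse 2 was among them. The log2 fold change of -0.14 (SE 0.0554, fold 0.910, 95% interval 0.842 to 0.985) was the one value with an unadjusted p under 0.05 (0.0206) and did not pass adjustment (adjusted p = 0.405, edgeR). The microRNA gene Mir1192 lies in the same locus.

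Nfkbia encodes IκBα, the inhibitor that keeps NF-kB in the cytoplasm and is induced by NF-kB itself and by glucocorticoids. Total mRNA stood at 59.2, 54.6 and 60.3 CPM in WT and 58.1, 76.1 and 63.1 CPM in KO. KO mouse 2 stood above the other 5 mice, which lay between 54.6 and 63.1 CPM. The log2 fold change was 0.17 (SE 0.112, adjusted p = 0.757, edgeR). Ribosome-contained mRNA stood at 101, 113 and 105 CPM in WT and 89.7, 112 and 107 CPM in KO, with a log2 fold change of -0.04 (SE 0.122). The library of KO mouse 2 did not stand out there.

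Mt2 encodes a metallothionein, a small cysteine-rich protein that binds zinc and copper and is induced by glucocorticoids and by metals, in brain mainly in astrocytes. Its row (chromosome 8, 94172618 to 94173567, no overlapping gene) held 521, 499 and 491 CPM in the WT mice and 431, 542 and 774 CPM in the KO mice in total mRNA. The WT mice were nearly equal, KO mouse 1 lay below them and KO mouse 3 was 1.59 times the mean of the other KO mice. Ribosome-contained mRNA repeated this with 879, 876 and 869 CPM in WT and 756, 949 and 1372 CPM in KO, where KO mouse 3 was 1.61 times the mean of the other KO mice. The fold change was 1.16 (95% interval 0.736 to 1.82; log2 0.21, SE 0.243, adjusted p = 0.882, edgeR) in total and 1.17 (0.747 to 1.84; log2 0.23, SE 0.242, adjusted p = 0.857, edgeR) in ribosome-contained mRNA. Without KO mouse 3 the log2 fold changes were -0.05 and -0.03.

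The spread of Mt2 was set against 1301 rows that had a mean of at least 100 CPM in both kinds of library. Its SD of log2 CPM over the KO mice in total mRNA, 0.425, was the largest of them, where the median row had 0.0627. In ribosome-contained mRNA it was 0.433, with 3 rows above it. Over the WT mice it was 0.0434 and 0.00914, below the medians of 0.0624 and 0.0728. The WT libraries of ribosome-contained mRNA held 1005 to 1339 Mt2 counts. The value of 0.00914 is thus below what counting error alone would give and does not show how alike the mice were. Fkbp5 ranked 6 among the 1301 rows over the KO mice in total mRNA (0.301) and 71 in ribosome-contained mRNA (0.213), and ranked 50 over the WT mice in total mRNA (0.164). Klf9 ranked 55 in KO (0.172) and 941 in WT (0.0413) in total mRNA, and 450 in KO in ribosome-contained mRNA (0.107), nearer the median row (0.0816). The 6 widest rows over KO mice in total mRNA were those of Mt2, Ddit4, Arl4d, Nr1d1, Idi1 and Fkbp5. Ddit4, named after its values were seen, is another corticosteroid-induced gene, an inhibitor of mTORC1, and stood at 117, 159 and 201 CPM in KO mice 1 to 3. No other gene of the list of other corticosteroid-induced genes was among these 6 rows. Arl4d, Nr1d1 and Idi1 are in none of the lists used here.

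**Figure D3:**
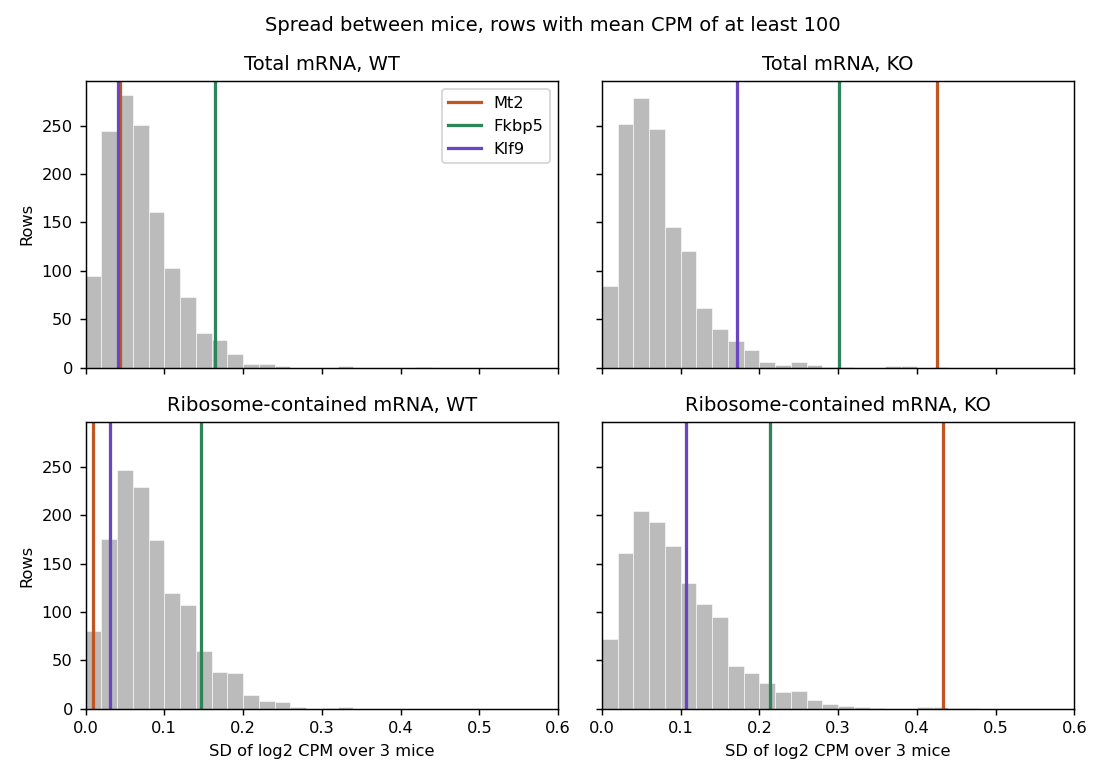
Number of rows (y axis) by SD of log2 CPM over 3 mice (x axis) for 1301 rows with a mean of at least 100 CPM in both kinds of library, by kind and genotype; vertical lines mark Mt2, Fkbp5 and Klf9. Mt2 lies at 0.425 and 0.433 in KO, in the far tail, and at 0.0434 and 0.00914 in WT, the last below what counting error alone would give.

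Other genes of the metal response were not called either. Mt3, the metallothionein of neurons and astrocytes that is little induced by steroids or metals, is counted from a single accession at a locus upstream of Mt2 and stood at 1354, 1367 and 1367 CPM in WT and 1325, 1254 and 1448 CPM in KO in total mRNA. KO mouse 3 was highest here too, but by less. Of the 7 genes of the metal response list, Mt3 among them, 4 were tested and 0 passed in total mRNA (2 positive and 2 negative, median 0.00), with Mtf1, the metal-sensing transcription factor, at -0.08 (adjusted p = 0.795, edgeR). In ribosome-contained mRNA 0 of 4 passed and all 4 were negative (median -0.07). Mt1, the close relative of Mt2, was represented by the predicted model XM_006530752.3 with 32 counts in all, and its curated accession NM_013602.3 was listed at 0 in the 12 libraries, so that Mt1 was not tested.

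Pdk4 encodes the pyruvate dehydrogenase kinase that shifts fuel use from glucose to fatty acids in fasting and under glucocorticoids. Total mRNA stood at 20.2, 18.4 and 11.8 CPM in WT and 10.1, 15.6 and 21.9 CPM in KO. WT mouse 3 and KO mouse 1 were low and the other 4 mice high, so that both genotypes held the same range. The log2 fold change was -0.07 (SE 0.244, adjusted p = 0.974, edgeR). Ribosome-contained mRNA stood at 28.6, 24.4 and 13.0 CPM in WT and 13.5, 20.5 and 30.7 CPM in KO, with the same 2 mice low. Of 12 genes of fatty acid oxidation and PPAR signalling, 9 were tested and 0 passed in total mRNA (5 positive, median 0.00). In ribosome-contained mRNA 0 of 9 passed and 7 were positive.

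Cdkn1a encodes the cyclin-dependent kinase inhibitor p21. It stood at 11.7, 9.92 and 9.51 CPM in WT and 7.70, 12.3 and 8.18 CPM in KO in total mRNA, with KO mouse 1 lowest and KO mouse 2 highest. The log2 fold change was -0.15 (SE 0.255, adjusted p = 0.922, edgeR), and the 50 counts in ribosome-contained mRNA were too few for the test. Of 11 p53 targets 4 were tested and 0 passed in total mRNA, 3 of them positive. Sesn2 had the lowest p, with a log2 fold change of 0.38 (adjusted p = 0.475, edgeR). It was the 1 of these 4 with an unadjusted p under 0.05 (8.15% of all rows). In ribosome-contained mRNA 0 of 4 passed, 2 positive and 2 negative.

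Errfi1 encodes MIG6, a feedback inhibitor of the EGF receptor. Total mRNA stood at 9.45, 10.9 and 9.51 CPM in WT and 7.70, 12.3 and 11.4 CPM in KO, with KO mouse 1 lowest and KO mouse 2 highest. The log2 fold change was 0.08 (SE 0.250, adjusted p = 0.968, edgeR), and the gene overlaps 1700045H11Rik. In ribosome-contained mRNA it was 0.16 (SE 0.380), with the order of the KO mice kept (5.79, 14.3 and 12.5 CPM). That order rests on 6, 16 and 13 counts. Of 9 genes of the EGF receptor family and its feedback 6 were tested and 0 passed, 3 in each direction. The phosphatase gene Dusp6 was at -0.23 (adjusted p = 0.158, edgeR).

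The same brain gave like levels in its 2 libraries for some of the genes. For Mt2, Pearson's r between log2 CPM in total and in ribosome-contained mRNA over the 6 mice was 0.997 and Spearman's rho 1.0, both with an exact permutation p of 0.00278, the smallest that 6 mice gave here, and 0.0194 after Benjamini-Hochberg adjustment over 7 genes. For Pdk4, r was 0.980 (adjusted exact permutation p = 0.0194) and rho 0.943 (adjusted exact permutation p = 0.0583). Sgk1 had r of 0.866 (adjusted exact permutation p = 0.0454) and rho of 0.829 (0.0817). In all 3 passed by r and 1 by rho. Fkbp5 (r = 0.846), Errfi1 (0.793), Klf9 (0.720) and Nfkbia (0.330) did not pass, with adjusted exact permutation p from 0.0778 to 0.503. Without the 2 mice farthest from the median in total mRNA, r over the other 4 was 0.889 for Mt2, 0.995 for Pdk4 and 0.535 for Sgk1, so that the relation of Sgk1 rested on WT mouse 1 and KO mouse 2. Across the 1301 well counted rows the median r was 0.318, and 4.61% of rows reached 0.9. Mt2, Fkbp5 and Klf9 are among those rows, while Pdk4, Sgk1, Errfi1 and Nfkbia are not. By their labels both libraries come from the same brain, and they share its cell composition.

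**Figure D4:**
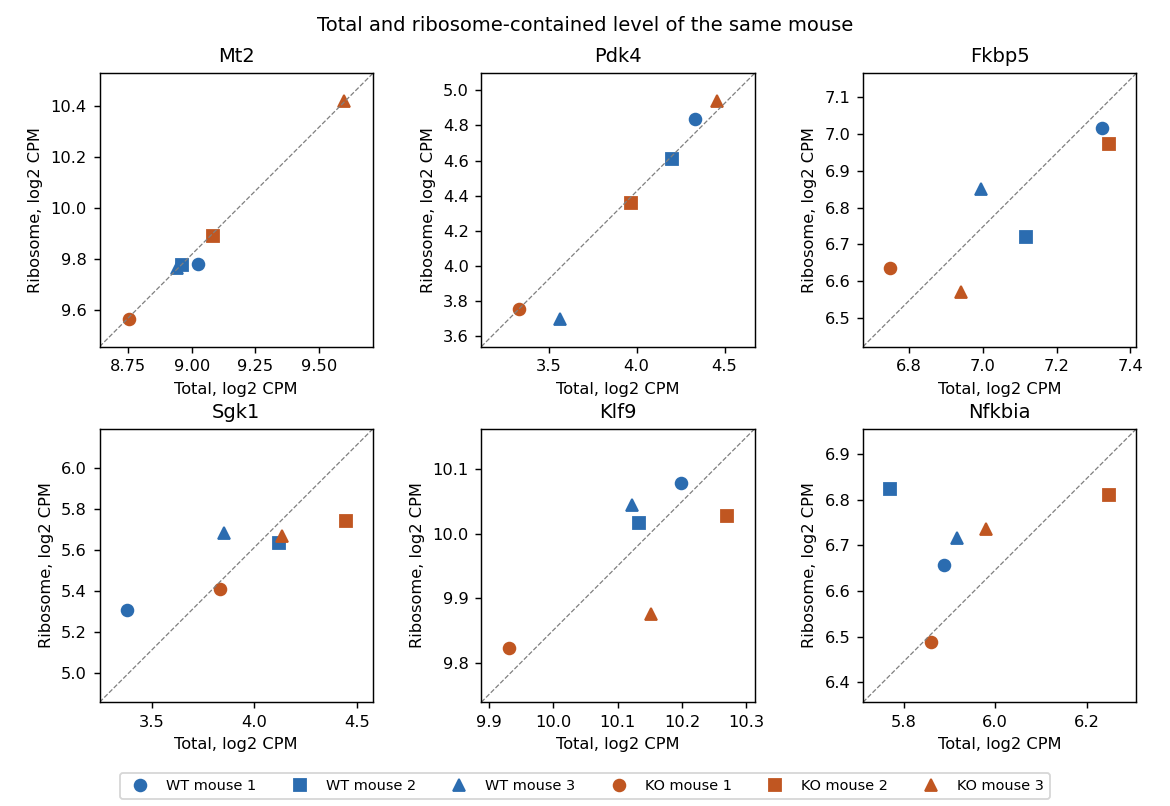
Log2 CPM in total mRNA (x axis) against log2 CPM in ribosome-contained mRNA (y axis) of the same mouse for 6 genes, with 1 symbol per mouse and a dashed line of slope 1. For Mt2 (r = 0.997) and Pdk4 (r = 0.980) the mice keep near the line, and for Nfkbia (r = 0.330) they do not.

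The ratio of ribosome-contained to total CPM was nearly constant for Mt2. It was 1.69, 1.76 and 1.77 in the WT mice and 1.75, 1.75 and 1.77 in the KO mice. Its SD on the log2 scale over 6 mice was 0.0252, while that of the total level was 0.286, and only 3 of the 1301 rows had a smaller SD of the ratio (median 0.105). Counting error alone would give about 0.0574, so the SD of 0.0252 does not show how constant the ratio was. The other ratios ran wider: Fkbp5 ran from 0.759 to 0.924, Klf9 from 0.826 to 0.948 and Pdk4 from 1.10 to 1.42. Their SDs were 0.124, 0.0818 and 0.133, where counting error alone would give about 0.147, 0.0492 and 0.370. Of these, only the SD of Klf9 was above counting error. A ratio above or below 1 is relative to the other rows of each library and not a number of ribosomes per mRNA.

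Nfkbia was the 1 gene of 7 whose ratios did not overlap between genotypes, which is near the share of 11.5% over all rows. The WT mice had 1.70, 2.08 and 1.74 and the KO mice 1.55, 1.48 and 1.69, and the difference did not pass (log2 -0.22, SE 0.169, adjusted p = 0.998, edgeR interaction of genotype and library kind). That model had no term for mouse, so its SE and p do not use the pairing of the 2 libraries of a brain. Over 12 alternatives, a term for mouse among them, the log2 value of Nfkbia ran from -0.28 to -0.15. The main Sgk1 row had 3.80, 2.86 and 3.55 in WT and 2.99, 2.46 and 2.90 in KO (log2 -0.32, SE 0.278, adjusted p = 0.998, edgeR). With a term for mouse the log2 value of this Sgk1 row was -0.30 (adjusted p = 0.906, edgeR). The upstream Sgk1 row, which is not among the 7, went the other way, and its groups did not overlap either. It had 2.52, 2.38 and 1.94 in WT and 3.60, 2.74 and 3.28 in KO (log2 0.51, SE 0.287, adjusted p = 0.960, edgeR). With the accessions summed the log2 value of the Sgk1 ratio was 0.05.

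**Figure D5:**
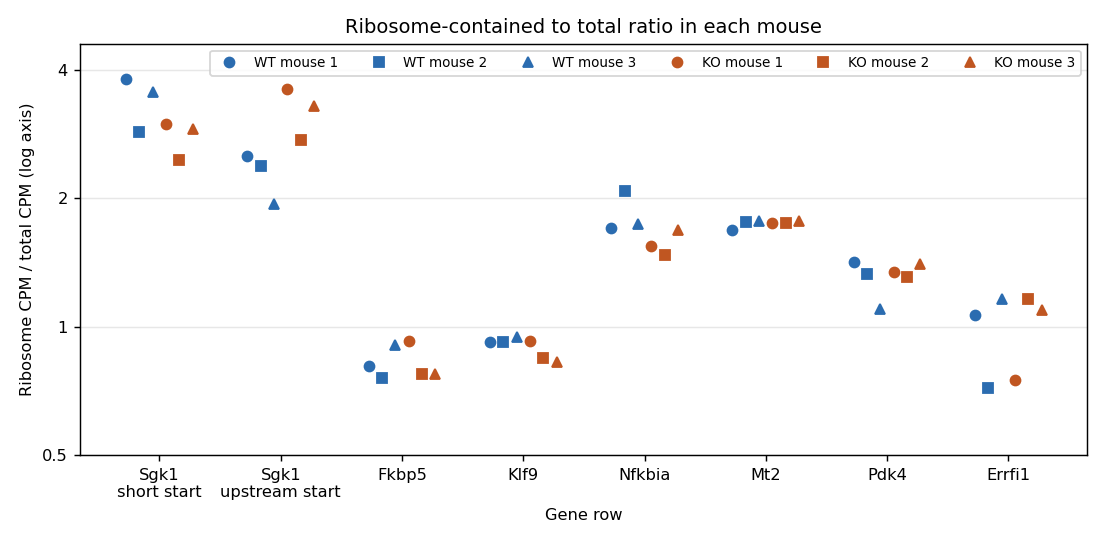
Ratio of ribosome-contained to total CPM (log axis) in each mouse for 8 rows, with 1 symbol per mouse; Sgk1 is split into the row of the short transcript (start site 21994666) and that of the upstream start. Mt2 stays between 1.69 and 1.77, and the Sgk1 rows differ in the order of the genotypes.

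Upstream of the 10 genes, the chaperones of the receptor had negative fold changes that did not pass the test, and the receptors themselves were not tested, with 13 counts over the 12 libraries for Nr3c1 and 58 for Nr3c2. Of 14 listed genes 6 were tested in total mRNA (Fkbp4, Hsp90aa1, Hsp90ab1, Hspa8, Stip1 and the corepressor gene Ncor1), 0 passed and all 6 were negative, with a median log2 fold change of -0.13 (0.01 over all rows) and 3 at an unadjusted p under 0.05 (8.15% of all rows). Fkbp4, the co-chaperone that opposes the product of Fkbp5 at the receptor, had the lowest p: it stood at 293, 269.9 and 275 CPM in WT and 249.5, 254 and 243 CPM in KO, so that the groups did not overlap, and had a log2 fold change of -0.17 (SE 0.0597, adjusted p = 0.382, edgeR). In ribosome-contained mRNA 0 of 5 passed and all 5 were negative (median -0.08). Ptges3, the p23 co-chaperone, was listed at 0.

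Other corticosteroid-induced genes gave counts like those of the 10. Of 28 listed, 11 were tested in total mRNA and 0 passed, 3 positive and 8 negative, with a median of -0.03. Rasd1, a Ras-related GTPase gene induced by dexamethasone, had the lowest p, with a log2 fold change of -0.23 (adjusted p = 0.683, edgeR). In ribosome-contained mRNA 0 of 8 passed, 4 in each direction, and the median was 0.01. The stress-axis list had 4 of 8 genes tested and 0 passed, with Crhbp, the binding protein of corticotropin-releasing hormone, at -0.27 (adjusted p = 0.664, edgeR). Of 11 NF-kB targets and subunits 3 were tested and 0 passed, all positive, and Rela, which encodes the p65 subunit, was at 0.25 (adjusted p = 0.880, edgeR).

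The immediate early genes, which neuronal activity and acute stress induce within minutes, did differ in the same libraries. Of 16 listed, 11 were tested in total mRNA and 4 fell (Egr1, Egr4, Fosl2 and Ier5), 10 were negative, and the median log2 fold change was -0.33, where 0.244% of all rows fell. In ribosome-contained mRNA 3 of 9 fell, (Egr1, Fosl2 and Ier5), against 0.168% of rows, and the median was -0.41. Egr4 did not pass in total mRNA without WT mouse 1, KO mouse 1 or KO mouse 2, which left 3 calls. In ribosome-contained mRNA 1 call (Egr1) was left without WT mouse 1 and 2 (Egr1 and Ier5) without WT mouse 2 or KO mouse 1, and without KO mouse 3 the 3 calls were Egr1, Ier5 and Fos. Their summed level was 2524 to 2829 CPM in the WT mice and 1886, 2079 and 2154 CPM in the KO mice in total mRNA. KO mouse 1 was the lowest there as well, but all 3 KO mice were below the 3 WT mice, unlike the summed level of the 10 genes (1845 to 1971 CPM in WT and 1616, 2082 and 2161 CPM in KO). Each sum mainly follows its best counted rows. In KO mouse 3 Klf9 stood at 1137 CPM and Mt2 at 774 CPM. Egr1 had the most counts of the immediate early list (35003 over the 12 libraries). Among choroid plexus markers Ttr, the gene for transthyretin, rose in both kinds of library (rises made up 0.0853% of all rows in total and 0.0421% in ribosome-contained mRNA), the 5 tested markers of 6 were positive, and their sum was 2319 to 2559.6 CPM in WT and 2896 to 2931 CPM in KO. Their part in the levels of the 10 genes was not tested.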

How the data were processed

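Total and ribosome-contained mRNA libraries of 6 brains were analysed from the counts of reads per RefSeq accession that the authors deposited for 12 HiSeq libraries; the values are whole numbers, named per the file headers, with no normalization. The ribosome columns were assigned to HiSeq from the name of the table. The A-site codon counts of 6 MiSeq libraries were not used here. The submitters' processing notes name Bowtie2, HISAT2, HTSeq and mm10. The treatment of strand and of reads shared by transcripts is not given in the sources used here, and labels name no molecular identifiers, so the Wilson intervals cover counting error only, while those of fold changes come from the fits over mice.

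Of 106519 rows, 86040 were matched to symbols with RefSeq tables of GRCm38 (98.0% of counts), and 0 value columns were left unused. Overlaps with other genes are named for the 10 genes only, and some of the other genes named here also overlap a neighbour. Replicates differed beyond sampling noise (chi-square per degree of freedom 1.50 to 2.11), so each mouse was kept. edgeR 4.0.16 in R 4.3.3 (limma 3.58.1; quasi-likelihood, robust, TMM, minimum count 10 and minimum total count 15) was fitted to all rows of each kind, with 3 mice per genotype, and the ratio used the genotype-by-kind interaction in 1 model. The ratio model had no term for mouse, so it took the 2 libraries of a brain as independent. CPM were scaled by TMM, and SDs of log2 CPM used a prior count of 2. Adjusted p-values are Benjamini-Hochberg over all tested rows. DESeq2 1.42.0, other filters, summed accessions, the replicate block and leaving out single libraries were alternatives. The fits were tested on simulated data. Correlations used scipy 1.17.1.

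The 10 genes and all gene lists were chosen with earlier results of these data known. The text names all 10 genes, the called genes of each other list, and its gene with the lowest p in total mRNA, except for an item not reported here; Nr3c1, Nr3c2, the tested chaperones, Ptges3, Mt3, Ddit4 and genes of the marker lists were named after their values were seen. Replicate numbers were not taken to pair WT with KO mice (correlation of deviations -0.07 to 0.03). Total and ribosome-contained libraries of 1 number come from the same mouse by the labels (correlation 0.03 to 0.16). These ranges meet, so the correlations cannot decide whether the numbers pair WT with KO mice. The block for mouse changed no call of the 10 genes.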

Additional observations from a re-analysis of the deposited data

How the results depend on the processing

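Among the genes with an adjusted p, 0 were called in each of the 3 comparisons under every alternative run; DESeq2 gave none for 5 of the 9 genes in total mRNA. The number of rows called moved with no filter on low counts from 27 to 43 in total mRNA, from 10 to 27 in ribosome-contained mRNA and from 0 to 4 for the ratio. With the replicate block, 48 rows were called in ribosome-contained mRNA and 4 for the ratio. Leaving out single libraries gave 9 (without KO mouse 1) to 42 (without WT mouse 3) rows in total mRNA, 4 (without WT mouse 1) to 24 (without WT mouse 3 or KO mouse 2) in ribosome-contained mRNA and 0 to 4 (without KO mouse 1) for the ratio. The median SD over the genes ran from 0.101 to 0.195 (WT) and 0.205 to 0.417 (KO) in total mRNA, and from 0.0755 to 0.152 (WT) and 0.121 to 0.232 (KO) in ribosome-contained mRNA. Log2 fold changes turned sign for Pdk4 in ribosome-contained mRNA with DESeq2 (-0.00843) and, with accessions summed, for the ratio of Sgk1 (0.0495) and Fkbp5 (0.000435). Without single libraries they ran in total mRNA from -0.380 to 0.175 for Pdk4, -0.0526 to 0.386 for Mt2, -0.0473 to 0.261 for Errfi1, -0.108 to 0.0602 for Klf9 and -0.307 to 0.266 for Tsc22d3. In ribosome-contained mRNA they ran from -0.0425 to 0.147 for Sgk1, -0.318 to 0.256 for Pdk4, -0.0326 to 0.403 for Mt2, -0.0952 to 0.449 for Errfi1 and -0.116 to 0.0400 for Nfkbia. For the ratio they ran from -0.0705 to 0.0475 for Fkbp5, -0.0324 to 0.138 for Pdk4 and -0.114 to 0.205 for Errfi1. The cause of these shifts was not tested. Depth limits Cdkn1a, Errfi1, Pdk4 and Tsc22d3, whose rows held 75 to 448 counts over 12 libraries.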

Other observations

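Rows whose profile over the 6 mice was most like that of the 10 genes were ranked as a description. By Pearson's r to the mean log2 CPM profile of the tested genes in total mRNA, the first 5 of 8197 rows were Pigbos1 (r = 0.985), which encodes a mitochondrial microprotein, a predicted model of the dynamin gene Dnm2 (0.977), Fam32a (0.974), the unmatched accession XR_001784929.1 (0.974) and Tsnax (0.963), which encodes translin-associated protein X. Fam32a stood at 232, 278 and 274 CPM in KO mice 1 to 3 and at 254, 253 and 259.8 CPM in WT mice.

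The rows most like Mt2 in both kinds of library, chosen after the values of Mt2 were seen and ranked by the smaller of the 2 r over 4600 rows, were H1f0, a linker histone gene (0.947 in total and 0.931 in ribosome-contained mRNA), Slc25a33, a mitochondrial pyrimidine nucleotide carrier (0.976 and 0.928), Mthfd1, an enzyme of folate metabolism (0.887 and 0.905), Ctsd, the protease cathepsin D (0.869 and 0.882), and Plin3, a lipid droplet protein (0.976 and 0.864). H1f0 stood at 532 CPM in KO mouse 3 and at 412 to 454 CPM in the other 5 mice in total mRNA. With 6 mice and this many rows, high values of r occur without any relation, so the names are a description only.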
